A study of Mus musculus with 4 samples.

Results

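The microglia that kept a homeostatic cluster after ATV:4D9 were examined in wild-type (WT) mice, against the homeostatic microglia of WT mice given the isotype control. In the authors' cell annotation, every cell was taken whose cluster at the coarser resolution (0.2) was 0 or 3 and whose mouse was WT;TfRmu/hu and had received ATV:4D9 or the isotype. This gave 10726 cells of the 74758 in the series and of the 25798 from WT mice. Of these, 1251 came from 4 mice given ATV:4D9 and 9475 from 4 mice given the isotype, while 4244 lay in cluster 3 and 6482 in cluster 0. Cluster numbers here are those of the cell annotation. They differ from the numbers in the paper, whose cluster 3 is the amyloid-induced one resembling disease-associated microglia. Besides these WT;TfRmu/hu mice, dosed with ATV:4D9 or ATV:ISO, 12 further mice were AppSAA;TfRmu/hu and received 4D9, ATV:4D9 or ATV:ISO, 4 per antibody, so that the series held 20 mice, all sampled 1 day after an intravenous dose of 10 mg/kg. Every mouse carried the TfRmu/hu allele, a transferrin receptor with a humanised apical domain, and WT mice lacked the AppSAA knock-in alleles that give amyloid plaques, so plaques have no part in the WT comparison. The isotype arm is labelled ATV-DNP02 and was read as ATV:ISO, which the deposited texts do not state. Cells from brain (cortex, or cortex and hippocampus, as the texts differ) were sorted as live CD11b+ cells (CD45 was also named in 1 text), tagged per mouse and loaded in 4 pools with 1 mouse of each group, so each ATV:4D9 mouse has an ATV:ISO mouse of its own pool. Ages were not used here, 1 of the 8 mice (ATV:ISO, pool 4) was recorded as female, and 1 dose and 1 time were sampled.

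TREM2 is a lipid-sensing receptor of microglia that signals through the adaptor TYROBP (DAP12) and the kinase SYK, and it is known for licensing the passage from the homeostatic to the disease-associated microglial (DAM) state. 4D9 is an activating antibody against mouse TREM2, and ATV:4D9 carries an Fc engineered to bind the human transferrin receptor, which ferries it across brain endothelium. Homeostatic microglia are recognised by surface and secreted products such as P2RY12, TMEM119 and CX3CR1, by the transcription factors SALL1 and MAF, and by low levels of cytokines, DAM genes and cell cycle genes.

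The label was checked against its markers. In clusters 0 and 3 of the ATV:ISO mice, P2ry12 stood at 3016 plain CPM, Siglech at 1345 and Sall1 at 389.6, while the DAM gene Lpl stood at 23.7 and the mitotic gene Mki67 at 2.30 (means of 4 mice). Plain CPM are UMIs in counts-per-million of all UMIs of the sum, with no other scaling. Clusters 0 and 3 of the ATV:4D9 mice held P2ry12 at 2202, Siglech at 1133 and Sall1 at 303, between the ATV:ISO level and that of the same mice's cluster 2, where the values were 985, 582 and 186. Lpl stood at 59.9 against 232 in cluster 2, and Mki67 at 2.09 against 273 in cluster 4. The other DAM markers checked stood at 135 (Cst7), 22.5 (Itgax), 50.7 (Clec7a), 23.1 (Axl), 24.9 (Spp1) and 3.39 (Gpnmb). In cluster 2 they stood at 298, 43.3, 86.3, 27.4, 21.8 and 2.92, so Axl, Spp1 and Gpnmb were near that level. The SD over the ATV:4D9 mice in clusters 0 and 3 was 9.21 for Axl, 10.9 for Spp1 and 3.62 for Gpnmb. The cycling marker Mcm5 stood at 17.7, above 7.28 in the ATV:ISO mice and below 119 in cluster 2. By the authors' finer clustering (resolution 0.4), however, 21.95% to 27.2% of these cells per ATV:4D9 mouse lay in clusters other than the homeostatic ones, against 1.21% to 1.63% per ATV:ISO mouse. The clusters were made by the authors from the expression of the cells of all mice, which also set whether a cell lay in cluster 0 or 3. So a cell that lost enough of the homeostatic pattern is not among those compared. Results were therefore also computed on the cells that both clusterings placed as homeostatic, called the stricter cells below. Xist in the male pool 4 mouse given ATV:4D9 was 1.33% of its level in the female mouse, and Ddx3y in the female mouse was 5.95% of the mean of the 3 male ATV:ISO mice, so the recorded sex fits the libraries to within this background. In that male mouse Xist stood at 19.97 plain CPM in clusters 0 and 3 and at 6.21 in clusters 2 and 4. The background was thus higher in the cells compared here, and its source was not tested. Between 1481353 and 26554454 UMIs were summed per mouse, no barcode was repeated within a pool, and 141 of the 10726 cells shared a barcode sequence with a cell of another pool.

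Few cells of the ATV:4D9 mice remained homeostatic, and those that did were more often in cluster 3. Clusters 0 and 3 held 8.001%, 10.1%, 5.52% and 7.05% of the microglia of the ATV:4D9 mice of pools 1 to 4 (the order used for all values below), against 96.2%, 95.2%, 97.1% and 96.2% of those of the ATV:ISO mice. Of these cells, 58.4%, 56.5%, 63.4% and 61.7% were in cluster 3 with ATV:4D9 and 40.5%, 37.2%, 37.2% and 34.0% with ATV:ISO. Cluster 3 is the homeostatic cluster that is high in immediate early genes, so the mix of the clusters enters every value summed over both. The median number of UMIs per cell was 8582, 8211.5, 8894.5 and 9540.5 with ATV:4D9 and 6832, 7115.5, 7969 and 8104 with ATV:ISO. In each of the 3 measures all mice of a group lay on the same side of the other group (p = 0.0286 in an exact permutation test, two-sided, which 4 against 4 mice cannot go below, adjusted p = 0.0476 over 5 measures). Within cluster 0 the median was 7849 against 7049 UMIs per cell with overlap between the groups, and within cluster 3 it was 9640.0 against 8508 without overlap, with the ATV:4D9 mouse higher in all 4 pools in each. Over clusters 0 and 3, genes per cell (2968 against 2782, exact permutation test, p = 0.171) and mitochondrial percentage (1.37 against 1.24, exact permutation test, p = 0.571) did not pass the threshold. The permutation test does not use the pools, and the ATV:4D9 mouse was higher in all 4 pools for genes per cell and in 3 for mitochondrial percentage. With 1 mouse left out the smallest possible exact p is 0.0571. Over all cells of the homeostatic clusters of the finer clustering, whatever their coarser cluster, the UMI difference was 665.6 (exact permutation test, p = 0.229), again with the ATV:4D9 mouse higher in all 4 pools. Since values below are shares of the UMIs of a sum, a change relative to the other RNA and a change in RNA per cell cannot be told apart.

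**Figure D1:**
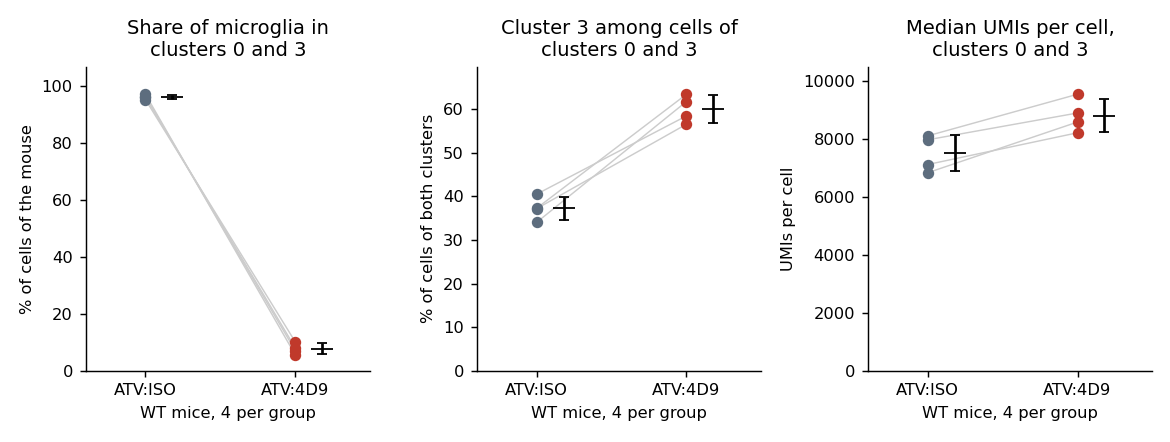
Share of microglia in clusters 0 and 3 (% of the cells of a mouse), share of cluster 3 among them (%) and median UMIs per cell, with 1 point per WT mouse, grey lines joining mice of the same pool and bars for the mean ± SD of 4 mice. The ATV:4D9 mice lie below the ATV:ISO mice in the plot of the share of clusters 0 and 3 (5.52% to 10.1% against 95.2% to 97.1%) and above them in the others.

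The remaining homeostatic cells of the ATV:4D9 mice differed from their ATV:ISO counterparts in many genes, mostly by less than 2-fold. UMIs were summed per mouse and compared with edgeR's quasi-likelihood test with the pool as a block, and a gene was called at a Benjamini-Hochberg adjusted p under 0.05. Over clusters 0 and 3, 1473 of 12545 tested genes were higher (11.7%) and 1297 lower (10.3%) with ATV:4D9, which is 22.1% in either direction. The median absolute log2 difference of the called genes was 0.34, and 167 genes rose and 63 fell by more than 2-fold. All 4 mice of a group lay on the same side of the other group for 12.5% of the tested genes. Cluster 3 alone gave 1169 higher (10.1%) and 871 lower (7.49%) of 11628 genes, 17.5% in all, and 11.8% of its genes did not overlap between the groups. In cluster 0, where an ATV:4D9 mouse had between 60 and 186 cells, 611 genes (5.23%) were higher and 437 (3.74%) lower of 11691, 8.96% in all. They were 405 and 301 without the ATV:4D9 mouse of pool 1, 430 and 261 without that of pool 2 and 423 and 278 without that of pool 4. Without the pool as a block the counts were 534 and 325 over clusters 0 and 3, 482 and 235 in cluster 3 and 119 and 53 in cluster 0. In the stricter cells they were 824 and 690, 466 and 334, and 422 and 270. With each ATV:ISO mouse cut to the cell number and cluster mix of its pool's ATV:4D9 mouse, called matched cells below, they were 965 and 720, 857 and 553, and 383 and 200. The 3 sets of sums share cells or mice, so their counts are not independent of each other.

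The largest rises among well measured genes included the cytokine genes Tnf, Il1b and Il1a. Tnf, on chromosome 17 from 35199381 to 35202007 of GRCm38 and coding for the cytokine TNF, stood at 365, 304, 355 and 371 CPM in the ATV:4D9 mice and at 124, 51.9, 88.6 and 122 in the ATV:ISO mice. CPM without the word plain are scaled by edgeR's TMM factors, here and below. The groups did not overlap, which the rule for naming the largest rises and falls required. The log2 difference was 1.92 ± 0.13 (SE, edgeR adjusted p = 4.72e-11), or 1.72 in cluster 3 and 0.68 in cluster 0. It was 1.53 in matched cells and 1.49 in the stricter cells. Fxyd5, on chromosome 7 from 31032722 to 31042481 and coding for a regulator of the sodium pump, stood at 77.6, 87.5, 82.2 and 75.6 against 24.03, 20.1, 20.5 and 21.7 CPM, higher by 1.90 ± 0.12 (edgeR adjusted p = 2.86e-11). It rose in cluster 3 (1.82) and cluster 0 (1.70). Gadd45b, a growth arrest and stress gene, stood at 95.6, 56.9, 93.4 and 99.3 against 28.2, 10.5, 25.97 and 29.6 CPM, higher by 1.89 ± 0.17 (edgeR adjusted p = 1.05e-08), and by 1.26 in matched cells. The ATV:4D9 mouse of pool 2 was the lowest of its group and the ATV:ISO mouse of the same pool the lowest of its own. The secreted metalloprotease Adamts1 rose by 1.82 ± 0.13 (edgeR adjusted p = 1.55e-10), Il1b by 1.64 ± 0.20 and Il1a by 1.54 ± 0.12, with 541 ± 147 against 184 ± 30.4 CPM for Il1a (SD, n = 4). Cdkn1a, the cell cycle inhibitor p21, rose from 30.6 ± 7.49 to 92.7 ± 15.9 CPM (1.63 ± 0.18, edgeR adjusted p = 1.48e-07), by 1.29 in cluster 3 and 1.46 in cluster 0. The rule also named AI506816 (1.60), G530011O06Rik (1.49) and Lpl (1.42), and for cluster 3 the receptor Gpr84 (1.41), the MHC class II chaperone Cd74 (1.38) and Cxcl10 (1.38).

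The largest falls were smaller in value and included several surface receptors. Pde2a, a cyclic nucleotide phosphodiesterase on chromosome 7 from 101421691 to 101512827, stood at 16.3, 14.4, 18.4 and 22.7 CPM with ATV:4D9 and 32.9, 46.1, 36.9 and 44.2 with ATV:ISO, without overlap, and fell by 1.19 ± 0.16 on the log2 scale (edgeR adjusted p = 2.75e-06). The Fc receptor-like gene Fcrl1 stood at 14.2, 11.4, 15.8 and 17.7 against 32.7, 35.9, 29.7 and 32.2 CPM (-1.17 ± 0.27, edgeR adjusted p = 0.00202). S1pr1, a receptor for sphingosine 1-phosphate, stood at 27.5, 24.7, 26.97 and 34.8 against 51.2, 55.1, 54.4 and 55.7 CPM (-0.91 ± 0.09, edgeR adjusted p = 1.96e-08). In these 3 genes every ATV:4D9 mouse was below every ATV:ISO mouse, as the naming rule required. Their fall in cluster 3 (-1.45, -1.32 and -1.07) was larger in value than in cluster 0 (-0.81, -0.85 and -0.61), a difference that did not pass its own test (edgeR adjusted p = 0.231, 0.518 and 0.263). Sorl1, a sorting receptor known as an Alzheimer's disease risk gene, fell from 30.7 ± 4.15 to 17.2 ± 2.44 CPM (-0.85 ± 0.19, edgeR adjusted p = 0.00130). The lectin receptor Clec4a3 (-0.82), the platelet-activating factor receptor Ptafr (-0.76), the transcription factor Prdm1 (-0.80), the scaffold Bank1 (-0.76), Gprasp2 (-0.85) and Fnip2 (-0.76) followed.

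**Figure D2:**
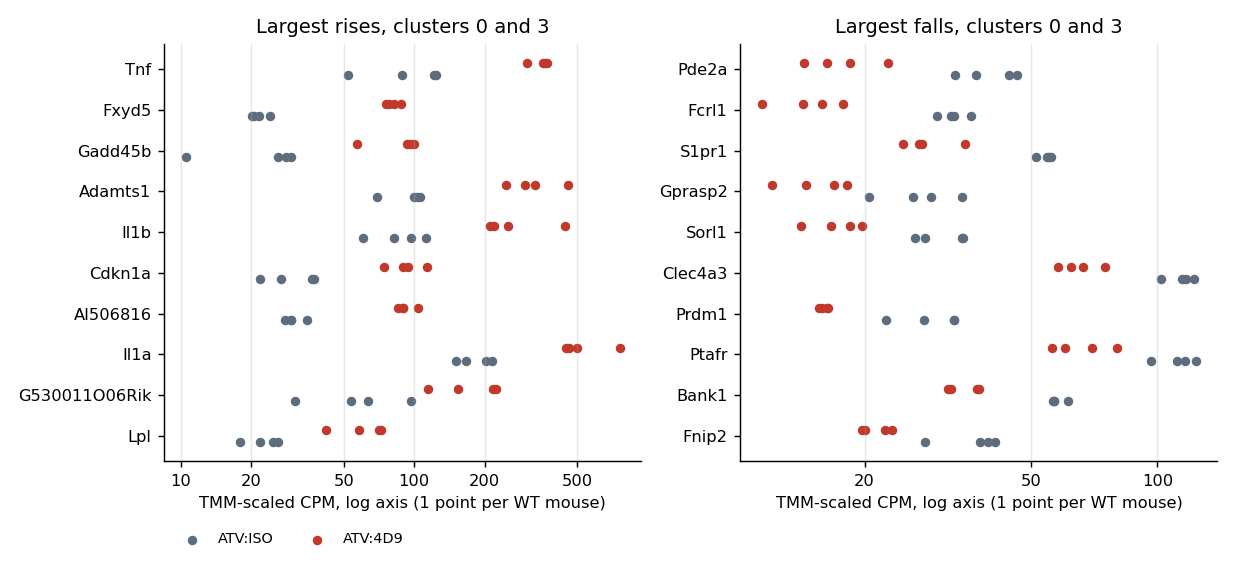
Level of the 10 most raised and 10 most lowered genes named by rule over clusters 0 and 3 (TMM-scaled CPM, log axis), with 1 point per WT mouse. No red point (ATV:4D9) lies among the grey points (ATV:ISO) of the same gene, which the rule for naming these genes required.

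Genes of the TNF and NF-kB list, which holds cytokines and the feedback inhibitors that NF-kB induces, were in most cases called higher with ATV:4D9. Over clusters 0 and 3, 12 of the 20 tested members were higher and none lower, beside 11.7% and 10.3% of all genes, with a median log2 difference of 0.81 against -0.01 over all genes. The list gave 11 higher and 1 lower in cluster 3 (median 0.48) and 4 higher in cluster 0 (median 0.18), and 9 higher of 19 in matched cells (median 0.36). The inhibitor Nfkbia stood at 1409, 1192, 1892 and 1396 CPM against 897, 545, 608 and 763, without overlap (1.09 ± 0.13, edgeR adjusted p = 9.48e-07), with 0.62 in matched cells. Ptgs2, the inducible cyclooxygenase, stood at 10.2, 6.78, 19.1 and 4.35 against 1.38, 1.07, 4.77 and 3.56 CPM (1.88 ± 0.35, edgeR adjusted p = 0.000228), where the groups overlapped. Its call was lost in the stricter cells (0.18) and without the block (edgeR adjusted p = 0.0535). In cluster 3, Tnf stood at 529, 449, 486 and 498 against 209.9, 84.7, 133 and 199 CPM, and in cluster 0 at 66.8, 47.2, 93.1 and 118 against 47.1, 26.99, 56.3 and 73.3. So the Tnf groups were apart in cluster 3 and overlapped in cluster 0, where the gene still passed the test (0.68 ± 0.11, edgeR adjusted p = 1.57e-05). The test of the difference between the clusters gave 1.08 ± 0.15 (edgeR adjusted p = 4.96e-06).

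Most tested chemokines, which draw other immune cells, were also called higher. Of 13 tested members, 8 were higher and none lower (median 0.53), 7 in cluster 3 and 4 in cluster 0. Ccl2, which draws monocytes, stood at 263, 126, 190.1 and 141 CPM against 91.3, 64.1, 61.8 and 72.9 (1.27 ± 0.13, edgeR adjusted p = 4.03e-08). Ccl12, a ligand of the same receptor CCR2, rose by 1.23 over clusters 0 and 3, by 1.19 in cluster 3 and by 1.02 in cluster 0. Ccl4, an inflammatory chemokine, stood at 2674, 2615, 3109.8 and 2556 against 1509, 900.1, 1175 and 1258 CPM (1.21 ± 0.12, edgeR adjusted p = 2.52e-08) and rose by 0.86 in cluster 3, while its value in cluster 0 was 0.17 (edgeR adjusted p = 0.229). Every ATV:4D9 mouse was above every ATV:ISO mouse for these 3 genes over both clusters. Cxcl10, a CXCR3 ligand induced by interferon, stood in cluster 3 at 199.9, 180.3, 460.2 and 318 against 134, 70.1, 84.2 and 145 CPM and in cluster 0 at 86.6, 42.1, 73.3 and 119 against 95.7, 42.1, 78.3 and 119. Its effect differed between the clusters by 1.35 ± 0.13 (edgeR adjusted p = 3.45e-10). Gene counting could split reads between the related genes Ccl2 and Ccl12, whose separation was not tested.

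Immediate early genes, the rapid transcription factors and feedback genes that many stimuli and tissue dissociation raise, were called more often with the clusters pooled than within either cluster. Over clusters 0 and 3, 18 of 20 were higher and none lower, with a median of 0.67. Within cluster 3, 11 were higher (median 0.30), within cluster 0, 1 was higher and 3 were lower (median -0.10), and in matched cells 9 were higher (median 0.22). The counts by cluster are not a test of a difference between the clusters. The summed level of the list was 26719 ± 4542 plain CPM (SD, n = 4 mice) with ATV:4D9 against 18010.3 ± 1302 with ATV:ISO, while cluster 3 gave 37687 ± 6104 against 33572 ± 1356 and cluster 0 gave 5506 ± 668 against 5986 ± 447. The share of cluster 3 moved with the pooled value, from 37.2% to 60.04% of the cells. Fos stood at 3267, 3751, 3909.8 and 2946 CPM against 2358, 1920.2, 1990.2 and 1442 (0.87 ± 0.09, edgeR adjusted p = 8.90e-08), and its value was 0.37 in cluster 3, -0.06 in cluster 0 and 0.28 in matched cells. Egr1 was higher by 0.90 ± 0.14 (edgeR adjusted p = 2.93e-05) and lost its call in matched cells (0.33). The members Jun, Jund and Klf6, and Txnip of the quiescence and FOXO-linked list, were called higher over both clusters (0.39, 0.31, 0.31 and 0.14) yet lower in cluster 0 (-0.26, -0.30, -0.28 and -0.21), and in matched cells their values were -0.066, -0.087, -0.023 and -0.12. Matched cells differ in both cell number and cluster mix, and the cause of the change in sign was not tested. Ier2 was higher by 1.26 over both clusters and by 0.69 in matched cells, Ier3 by 1.26 over both and by 0.89 and 0.54 in clusters 3 and 0, and Klf2 by 1.18 and 0.47. Egr3 was higher by 1.36 over both and by 0.86 in cluster 3 (edgeR adjusted p = 0.00207).

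**Figure D3:**
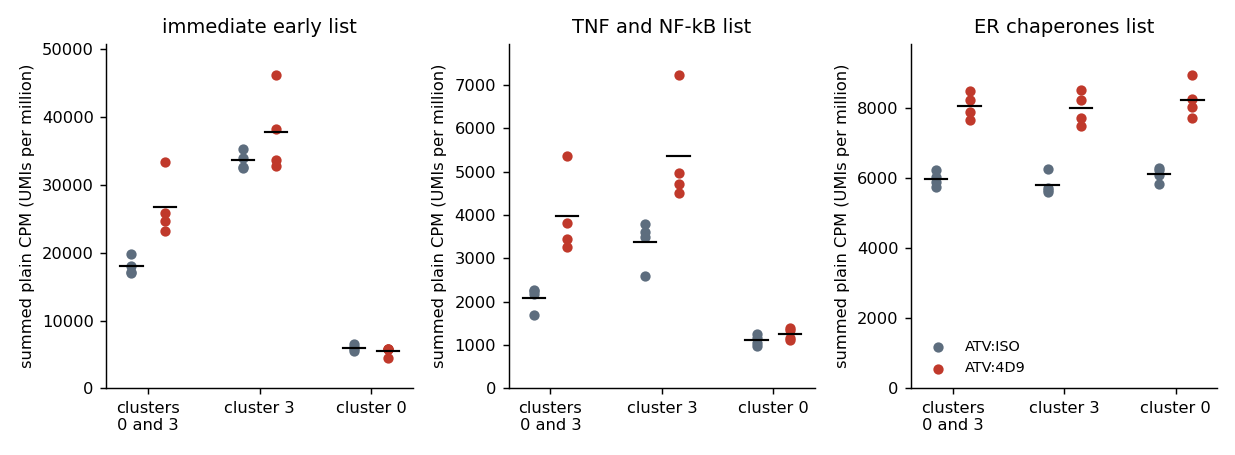
Summed level of the immediate early, the TNF and NF-kB and the ER chaperone lists (plain CPM) in clusters 0 and 3 together, in cluster 3 and in cluster 0, with 1 point per WT mouse and bars for the mean of 4 mice. The immediate early lists differ most between the clusters (33572 against 5986 in ATV:ISO mice), while the ER chaperones are higher with ATV:4D9 in every set of sums (8063, 7986 and 8234 against 5975, 5808 and 6106).

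The homeostatic signature fell in part. Of 24 tested members, 12 were lower and 2 higher, with a median of -0.16, and 10 and 6 were lower in clusters 3 and 0. The purinergic receptor gene P2ry12, on chromosome 3 from 59216272 to 59262871, stood at 2325, 2240.4, 2168 and 2257 CPM with ATV:4D9 and at 2927, 2924, 2949 and 2756 with ATV:ISO. Its groups were apart, and it fell by 0.36 ± 0.06 on the log2 scale (edgeR adjusted p = 6.42e-05), with -0.40 in cluster 3 and -0.18 in cluster 0. Tmem119, on chromosome 5 from 113793729 to 113800516, stood at 1411, 1330.0, 1316 and 1452 against 1345, 1278, 1277 and 1450.1 CPM, a difference of 0.04 ± 0.05 with overlap (edgeR adjusted p = 0.568). The ectonucleotidase Entpd1 (CD39) fell by 0.52 ± 0.05 on the log2 scale (edgeR adjusted p = 4.49e-08), from 439 ± 36.99 to 306 ± 13.3 CPM (SD, n = 4). The fractalkine receptor Cx3cr1 stood at 3460.5, 3874, 3864 and 4488 against 4306, 4772, 4775 and 5372 CPM, lower in each of the 4 pools (-0.29 ± 0.04, edgeR adjusted p = 4.76e-06), but its groups overlapped and without the block it was not called (edgeR adjusted p = 0.0845). Cst3 (-0.20) and Csf1r (-0.17) were also called lower only with the block. Olfml3, a secreted glycoprotein of the signature, went the other way, from 1370.3 ± 167 to 1923 ± 314 CPM (0.48 ± 0.05, edgeR adjusted p = 1.48e-07, and 0.0542 without the block). The signature as a sum was 83148 ± 6898 plain CPM with ATV:4D9 and 97246 ± 7003 with ATV:ISO, with overlap between the groups. Without the block 3 members were lower and none higher.

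Among the transcription factors of microglia, 8 of 17 were lower and 2 higher (median -0.13), and the counts were 9 and 2 in cluster 3 and 6 and 1 in cluster 0. Without the block 4 were lower and 2 higher. Maf, a factor of the homeostatic programme, stood at 475, 586, 495 and 535 CPM against 705, 835, 837 and 882, without overlap (-0.63 ± 0.06, edgeR adjusted p = 2.63e-08). Its fall was larger in cluster 3 (-0.68) than in cluster 0 (-0.39), with a difference of -0.30 ± 0.07 (edgeR adjusted p = 0.0107). Mitf, a factor of lysosomal genes, was lower by 0.38 ± 0.08 on the log2 scale (edgeR adjusted p = 0.000585). Bhlhe41 rose from 154 ± 12.5 to 209.6 ± 21.7 CPM, by 0.44 on the log2 scale in cluster 3 and 0.42 in cluster 0. Cebpb, a factor of inflammatory genes, was higher by 0.51 ± 0.08 (edgeR adjusted p = 3.36e-05), but its value in cluster 0 was near 0 (edgeR adjusted p = 0.993) and its call was lost in matched cells (0.28).

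Most tested DAM genes, the lipid and lysosomal programme that microglia take up near plaques, were called higher in cells that were still homeostatic by cluster. Of 31 tested members 19 were higher and none lower (median 0.36), 20 of 30 in cluster 3 (median 0.45) and 10 of 30 in cluster 0 (median 0.18). The stricter cells gave 14 higher and 1 lower, and the fit without the block 11 higher. Cst7, the protease inhibitor cystatin F, stood at 116, 119.8, 145 and 169.5 CPM against 49.1, 55.9, 89.8 and 79.1 (1.04 ± 0.08, edgeR adjusted p = 3.71e-10), 1.15 in cluster 3 and 0.72 in cluster 0. Lpl, lipoprotein lipase, stood at 41.7, 58.00, 72.4 and 70.9 against 21.9, 17.99, 24.8 and 25.97 CPM (1.42 ± 0.11, edgeR adjusted p = 5.45e-10). Neither gene overlapped between the groups. Axl, a receptor tyrosine kinase for apoptotic cells, rose from 9.61 ± 2.90 to 23.5 ± 8.66 CPM (1.19 ± 0.16, edgeR adjusted p = 2.53e-06), and Csf1, the ligand of CSF1R, from 33.4 ± 10.7 to 64.3 ± 13.2 (1.00 ± 0.12, edgeR adjusted p = 5.14e-07). In cluster 0 their values were 0.22 and 0.26, not past the threshold. The lectin Clec7a (0.61 ± 0.12, edgeR adjusted p = 0.000301) and the integrin Itgax (0.83 ± 0.10, edgeR adjusted p = 1.12e-06) were called with the block and not without it (edgeR adjusted p = 0.0776 and 0.203). Apoe, the main lipid carrier of the brain, stood at 1600.4, 795, 2432 and 1899 against 905, 1098, 1187 and 1209.7 CPM (0.52 ± 0.15, edgeR adjusted p = 0.0137). The ATV:4D9 mouse of pool 2 lay below its ATV:ISO counterpart while the other 3 lay above theirs, and the call was lost in matched cells (0.41), in the stricter cells (0.19) and without the block (edgeR adjusted p = 0.156). Its effect was 0.54 ± 0.17 in cluster 3 and -0.01 ± 0.13 in cluster 0, a difference that passed the test (0.53 ± 0.09, edgeR adjusted p = 0.000478). Ctsd was the most abundant member (0.22 ± 0.05, edgeR adjusted p = 0.00113), and the late DAM genes Spp1 and Gpnmb stood at 24.9 and 3.39 plain CPM with ATV:4D9 against 22.4 and 3.10 with ATV:ISO.

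The gene of the antibody's target did not pass the test. Trem2, on chromosome 17 from 48346401 to 48354147, stood at 3253, 2902, 2486 and 2909 CPM with ATV:4D9 and at 3168, 2908, 2858 and 2668 with ATV:ISO, with interleaved groups (-0.01 ± 0.05, edgeR adjusted p = 0.949). Of 27 tested genes of TREM2 signalling, 4 were higher and 7 lower (median -0.03), against 3 and 3 in the stricter cells, 3 and 4 in matched cells, and 2 and 1 without the block. Over all genes 11.7% were higher and 10.3% lower, and the share of the TREM2 list called higher is near the former. The adaptor Tyrobp stood at 4137, 3491, 3065 and 3579 against 3449.8, 3153, 2919.6 and 2912 CPM, higher in each pool (0.20 ± 0.05, edgeR adjusted p = 0.00406), though not without the block (edgeR adjusted p = 0.280) nor in the stricter cells (0.09). Syk, the kinase that TYROBP recruits, stood at 69.8, 68.8, 66.4 and 80.9 against 76.3, 89.01, 98.4 and 98.1 CPM, lower in each pool (-0.32 ± 0.06, edgeR adjusted p = 0.000457). Plcg2, the phospholipase downstream of SYK, gave 0.07 ± 0.05 (edgeR adjusted p = 0.405). Lat2, an adaptor of myeloid receptors, rose from 147 ± 15.8 to 259 ± 44.2 CPM (0.83 ± 0.06, edgeR adjusted p = 3.15e-10) and the phosphatase Ptpn6 (SHP-1) by 0.41 ± 0.05 (edgeR adjusted p = 1.99e-06). The PI3-kinase subunit Pik3cg (-0.38) and the paracaspase Malt1 (-0.44) were lower. Without the block Syk kept its call (edgeR adjusted p = 0.0283), and Pik3cg (edgeR adjusted p = 0.203) and Malt1 (edgeR adjusted p = 0.0561) did not.

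Of the 6 tested genes of Fc gamma receptors, which bind the constant part of antibodies, 2 were called, both lower. The low-affinity Fc receptor Fcgr3 stood at 931, 766, 859 and 819.9 CPM against 1161, 1055, 1145 and 1143, without overlap (-0.42 ± 0.05, edgeR adjusted p = 1.48e-07), and the inhibitory Fcgr2b at 197, 182, 179.6 and 189.9 against 243, 221, 237 and 231 (-0.31 ± 0.05, edgeR adjusted p = 4.83e-05). Both were called lower in cluster 3 and in cluster 0 as well. Among 6 colony-stimulating factor genes, Csf1 and the GM-CSF receptor chain Csf2ra (0.51 ± 0.06, edgeR adjusted p = 1.45e-06) were higher and Csf1r and Csf3r lower, but neither of the latter was called without the block. Tfrc, the transferrin receptor that the ATV domain binds in its TfRmu/hu form, stood at 7.12, 7.32, 10.5 and 11.03 against 4.88, 3.78, 5.02 and 5.46 CPM, without overlap (0.91 ± 0.16, edgeR adjusted p = 0.000119). It is a low gene, and in cluster 0 its value of 0.81 ± 0.30 was not past the threshold (edgeR adjusted p = 0.0820). The ferritin chains Ftl1 (0.48 ± 0.07, edgeR adjusted p = 4.84e-06) and Fth1 (0.36 ± 0.06, edgeR adjusted p = 2.17e-05) were higher, while the iron exporter Slc40a1 (-0.44) and the ferritin-degrading receptor Ncoa4 (-0.37) were lower. In all, 3 of 16 iron genes were higher and 4 lower, or 2 and 2 without the block. Of 12 TGF-beta genes, 2 were higher and 2 lower, each by less than 0.3 on the log2 scale. None was called without the block, and 1 was called, lower, in matched cells. These shares, and that of iron genes called higher, are near the 11.7% and 10.3% of all genes.

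Most interferon response genes were called higher over both clusters and in cluster 3. Of 27 tested, 18 were higher over both clusters and none lower (median 0.62), 15 in cluster 3 (median 0.67) and 1 in cluster 0 (median 0.38). These counts are not a test of a difference between the clusters. In matched cells 6 were called and 8 in the stricter cells, with medians of 0.45 and 0.39. The summed level of the list was between 1025 and 1310.2 plain CPM in the ATV:4D9 mice and between 783 and 965 in the ATV:ISO mice. Usp18, which restrains interferon receptor signalling, stood at 13.9, 7.05, 10.5 and 11.4 CPM against 4.38, 5.21, 4.77 and 6.52 (0.96 ± 0.21, edgeR adjusted p = 0.00154), without overlap. Bst2 (tetherin) rose by 0.51 ± 0.07 (edgeR adjusted p = 4.65e-06) and by 0.40 in cluster 0. Oas1a (1.08), Slfn5 (1.05) and Ifitm3 (0.76) were also called, though the ATV:4D9 mice were spread, as with Ifitm3 at 122, 56.9, 48.7 and 64.2 against 46.8, 33.7, 40.5 and 51.4 CPM. Oas1a and Usp18 lost their calls in the stricter cells and Slfn5 in matched cells. In antigen presentation, 3 of 12 MHC class I genes were higher and 2 lower, and 3 of 7 class II genes were higher. Without the block 1 class I gene was called in each direction and 1 class II gene was higher. B2m, the light chain of class I, rose by 0.29 ± 0.06 (edgeR adjusted p = 0.000336) and the immunoproteasome subunit Psmb9 fell by 0.35 ± 0.06 on the log2 scale (edgeR adjusted p = 4.06e-05). Cd74 stood at 229.8, 227, 203 and 217 against 78.2, 80.5, 107 and 95.9 CPM, without overlap (1.34 ± 0.23, edgeR adjusted p = 8.71e-05), and the peptide-loading gene H2-DMb1 rose by 0.33.

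Chaperones of the endoplasmic reticulum (ER), which fold secreted and membrane proteins, were higher in each set of sums. Of 18 tested, 15 were higher and none lower over both clusters (median 0.45), 15 in cluster 3 (median 0.49), 13 in cluster 0 (median 0.39), 15 in matched cells, 13 in the stricter cells and 11 without the block. Sdf2l1, an ER chaperone cofactor, stood at 488, 414, 326 and 387 CPM with ATV:4D9 and at 229, 205, 171 and 176 with ATV:ISO (1.05 ± 0.05, edgeR adjusted p = 2.90e-13), with 1.13 in cluster 3 and 0.91 in cluster 0. The calcium-binding chaperone Calr stood at 1239, 1057, 1228 and 1477 against 648, 592, 705 and 779.7 CPM (0.88 ± 0.05, edgeR adjusted p = 6.81e-13). For both genes every ATV:4D9 mouse was above every ATV:ISO mouse. The disulfide isomerases Pdia6 (0.60 ± 0.06, edgeR adjusted p = 8.85e-08) and Pdia3 (0.56 ± 0.04, edgeR adjusted p = 4.23e-10) and the HSP90 of the ER, Hsp90b1 (0.42 ± 0.04, edgeR adjusted p = 1.32e-07), were higher too. Hspa5, the ER HSP70 known as BiP, was chosen for its promoter after its values were seen. It stood at 1458, 1326, 1141 and 1111 against 895, 1016, 816 and 733 CPM (0.54 ± 0.06, edgeR adjusted p = 4.38e-07), without overlap.

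Since these genes moved together, their promoters are shown (RefSeq, GRCm38.p6, searched over 300 bases from 250 before to 50 after each gene start, on either strand). The motif searched was the ER stress response element, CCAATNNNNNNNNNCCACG, a known site of NF-Y with ATF6, and the search was chosen after the values were seen. It was found in the promoters of 7 of the 16 list members with a promoter in the table (Hspa5, Hsp90b1, Calr, Canx, Pdia6, Dnajc3 and Creld2, 7 of 7 called higher) and in 0.130% of all 27025 promoters (35). Over the whole list, with or without a match, 15 of 18 tested members were called higher. Of the 7 members with a match, 3 are printed over the 180 bases before the gene start, 5′ to 3′, with the match in capitals. They are Hspa5 (chr2:34771910-34772089, plus strand), Calr (chr8:84846932-84847111, minus strand, match on the reverse strand of the gene) and Pdia6 (chr12:17266409-17266588, plus strand).
Hspa5: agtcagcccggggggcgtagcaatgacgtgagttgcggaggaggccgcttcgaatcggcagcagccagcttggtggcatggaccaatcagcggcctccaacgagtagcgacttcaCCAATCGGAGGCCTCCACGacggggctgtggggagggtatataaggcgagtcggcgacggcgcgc
Calr: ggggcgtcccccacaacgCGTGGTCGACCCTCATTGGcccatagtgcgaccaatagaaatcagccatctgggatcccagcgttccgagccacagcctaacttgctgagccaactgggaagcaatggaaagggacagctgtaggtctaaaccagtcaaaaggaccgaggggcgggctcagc
Pdia6: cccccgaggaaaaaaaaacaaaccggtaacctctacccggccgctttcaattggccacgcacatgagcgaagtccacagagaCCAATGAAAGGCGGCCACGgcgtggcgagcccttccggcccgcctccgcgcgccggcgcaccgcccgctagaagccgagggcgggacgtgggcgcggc
The matches end 46, 143 and 79 bases before the gene start. A match is a description of these letters and not a measured binding site.

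Of the lists for protein synthesis and turnover, those of cytosolic ribosomal proteins and the proteasome had most of their members called higher. Of 78 cytosolic ribosomal protein genes, 57 were higher and 1 lower (median 0.25), with 50 higher in cluster 3 and 50 in cluster 0, and 26 in the stricter cells and 20 without the block. Rpsa, a small subunit protein, stood at 1937, 1589, 1429.6 and 1767 CPM against 1081, 915, 884 and 892, without overlap (0.83 ± 0.06, edgeR adjusted p = 8.01e-11), and Rps2 rose by 0.83 ± 0.06 (edgeR adjusted p = 9.64e-11). Ribosomal genes have many processed pseudogenes, and how reads were divided among them was not tested. Of 31 proteasome genes 21 were higher and none lower (median 0.22), with Psmd1 at 90.6 ± 9.496 against 65.9 ± 4.72 CPM (0.48 ± 0.05, edgeR adjusted p = 1.95e-07), but 5 without the block. The nucleolar genes Ncl (0.30 ± 0.05, edgeR adjusted p = 4.15e-05), Npm1 (0.38 ± 0.05, edgeR adjusted p = 7.68e-07) and Pes1 (0.52 ± 0.08, edgeR adjusted p = 1.14e-05) were among 11 of 31 Myc target and nucleolar genes called higher, with none lower, and 5 without the block. Of the polyamine genes on that list, Srm gave 0.23 ± 0.08 (edgeR adjusted p = 0.0380) with overlap and Odc1 0.29 ± 0.11 (edgeR adjusted p = 0.0532). Eif5a, the translation factor that polyamine modifies, rose by 0.51 ± 0.05 (edgeR adjusted p = 1.13e-08). Among 25 tRNA synthetase and ATF4-linked genes 8 were higher and 3 lower (4 and none without the block), with the serine synthesis gene Psat1 at 28.8, 28.7, 25.7 and 27.1 against 14.6, 16.4, 15.7 and 18.9 CPM (0.77 ± 0.10, edgeR adjusted p = 1.69e-06) and the valyl-tRNA synthetase Vars higher by 0.54. Heat shock chaperones gave 9 of 18 higher, and none without the block. Mitochondrial ribosomal genes gave 20 of 78 higher and 1 lower, but 3 higher in the stricter cells and 4 without the block.

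Among energy metabolism lists, those of glycolysis and of oxidative phosphorylation had most of their members called higher. In glycolysis 11 of 20 were higher and none lower (median 0.38), 12 of 19 in cluster 3, 6 in cluster 0, 11 in matched cells and 5 without the block. Pkm, pyruvate kinase, stood at 458, 329.9, 319 and 365 CPM against 220.1, 174, 183 and 178, without overlap (0.96 ± 0.05, edgeR adjusted p = 6.45e-13). Gapdh stood at 1538, 1230.2, 1059 and 1091 against 846, 693, 569 and 549 CPM, also without overlap (0.89 ± 0.06, edgeR adjusted p = 1.96e-11). Both rises were larger in cluster 3 than in cluster 0, by 0.34 ± 0.07 (edgeR adjusted p = 0.00245) and 0.34 ± 0.06 (edgeR adjusted p = 0.00112). Pgk1 (0.67), Tpi1 (0.58) and the lactate dehydrogenase chain Ldha (0.42) were higher, while Hif1a, the hypoxia factor that can drive the pathway, gave -0.01 ± 0.07 (edgeR adjusted p = 0.943). For oxidative phosphorylation, 58 of 76 nuclear genes were higher and 1 lower (median 0.26), 61 in cluster 3 and 34 in cluster 0, against 28 in the stricter cells and 18 without the block. The cytochrome oxidase gene Cox6a1 stood at 270.2, 236, 212 and 254 against 166, 143, 144 and 146 CPM (0.70 ± 0.05, edgeR adjusted p = 1.44e-10). Of 13 mitochondrially encoded genes 12 were higher (median 0.27), among them mt-Nd1 (0.47 ± 0.06, edgeR adjusted p = 2.57e-06), but none was called without the block. The citric acid cycle gave 5 of 18 higher and 1 lower, fatty acid oxidation 2 of 16 and 1, and the pentose phosphate pathway 2 of 9 and none, and none of these was called without the block. In cholesterol synthesis 5 of 21 were higher and none was called in matched cells and 1 without the block. In fatty acid synthesis 1 of 9 was higher, and none without the block. The shares called higher in both fatty acid lists are near the 11.7% of all genes called higher. The cholesterol exporter Abca1 was lower by 0.42 ± 0.06 on the log2 scale (edgeR adjusted p = 2.93e-05), and the efflux and lipid handling list gave 4 of 17 in each direction, and 1 higher and none lower without the block.

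Part of the DNA replication list was called higher, while the proliferation marker Mki67 did not pass the test. Cells of cluster 4, where Mki67 stood at 273 plain CPM with ATV:4D9, were left out by the choice of clusters. The low level of Mki67 here is thus set in part by that choice. Of 33 replication genes 14 were higher and none lower (median 0.52), 15 of 32 in cluster 3 and 7 of 33 in cluster 0. The stricter cells gave 11 higher and 1 lower, and the fit without the block 9 higher. Mcm5, a subunit of the replicative helicase, stood at 14.9, 17.6, 19.7 and 19.7 CPM with ATV:4D9 against 7.07, 5.72, 6.75 and 8.32 with ATV:ISO (1.36 ± 0.13, edgeR adjusted p = 2.39e-08), and 119 and 196 plain CPM in clusters 2 and 4 of the ATV:4D9 mice. Its partner Mcm6 stood at 23.1, 25.5, 29.6 and 27.1 against 9.07, 10.8, 9.49 and 12.3 CPM (1.30 ± 0.11, edgeR adjusted p = 5.35e-09). Neither overlapped between the groups. E2f1, a factor of these genes, rose from 4.25 ± 0.813 to 8.81 ± 1.11 CPM (1.06 ± 0.18, edgeR adjusted p = 9.22e-05). Of 25 mitosis genes 22 had a positive log2 difference (median 0.47), near the median of the replication list. In cluster 3 the median was 0.51 and 3 of 19 were called higher. Over both clusters 4 of 25 were called higher, a share near the 11.7% of all genes. Among the 4 was Cdk1 (0.87 ± 0.20, edgeR adjusted p = 0.00202), while Mki67 gave 0.03 ± 0.30 (edgeR adjusted p = 0.972) at 2.03, 2.17, 1.97 and 2.34 against 2.002, 1.23, 2.59 and 2.96 CPM. For G1 entry 5 of 16 were higher and 1 lower (2 and none without the block), with cyclin D1, Ccnd1, higher by 0.37 ± 0.07 (edgeR adjusted p = 0.000315) and the brake Rb1 lower by 0.37 ± 0.08 on the log2 scale (edgeR adjusted p = 0.00185). In the quiescence and FOXO-linked list 3 of 22 were higher, among them Cdkn1a, and 9 lower (median -0.15). The share called higher is near the 11.7% of all genes. The PI3-kinase inhibitor Pik3ip1 stood at 2.71, 2.44, 3.29 and 5.02 against 5.19, 8.43, 6.80 and 6.48 CPM (-1.01 ± 0.25, edgeR adjusted p = 0.00446) and had no call in matched cells (-0.76). For this list the stricter cells gave 3 higher and 2 lower, and the fit without the block 1 and 3.

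The promoters of the helicase genes are shown for the E2F site, TTTGGCGC, searched in the same 300-base windows on either strand, again after the values were seen. It was found in 6 of the 28 replication genes with a promoter in the table (Mcm3, Mcm5, Mcm6, Cdt1, Dtl and Pola1, of which 4 were called higher) and in 0.537% of all promoters (145). Over the whole list, with or without a match, 14 of 33 tested members were called higher. Mcm5 (chr8:75109329-75109508, plus strand) holds 1 match on its reverse strand, and Mcm6 (chr1:128359706-128359885, minus strand) holds 2 matches, in capitals.
Mcm5: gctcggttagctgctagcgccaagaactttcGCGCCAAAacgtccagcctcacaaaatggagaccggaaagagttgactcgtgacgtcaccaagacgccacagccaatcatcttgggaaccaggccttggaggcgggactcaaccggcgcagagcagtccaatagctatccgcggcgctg
Mcm6: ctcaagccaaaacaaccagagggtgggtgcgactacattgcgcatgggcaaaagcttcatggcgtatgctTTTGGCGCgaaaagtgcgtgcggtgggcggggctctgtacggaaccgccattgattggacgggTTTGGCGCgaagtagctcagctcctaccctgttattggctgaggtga
The first matches end 141 and 102 bases before the gene start.

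Most tested complement and cytoskeleton genes were also called higher. Of 34 lysosome genes 15 were higher and 2 lower (median 0.09), led by the glucuronidase Gusb, which stood at 328, 293, 277 and 311 CPM against 199, 176, 185 and 184, without overlap (0.70 ± 0.04, edgeR adjusted p = 1.25e-11). The stricter cells gave 12 and none, and the fit without the block 6 and none. The cathepsin Ctsz rose by 0.54 ± 0.05 (edgeR adjusted p = 7.76e-09). In complement 7 of 11 were higher and none lower (median 0.20), 7 in each cluster, and 3 without the block. The anaphylatoxin receptor C5ar1 rose from 99.3 ± 20.9 to 178 ± 16.9 CPM (0.84 ± 0.07, edgeR adjusted p = 1.75e-09) and C1qa by 0.24 ± 0.05 (edgeR adjusted p = 0.000428). Of 21 cytoskeletal genes 17 were higher and 1 lower (median 0.44), 17 in cluster 3 and 11 in cluster 0. The tubulin-binding protein Stmn1 stood at 97.3, 77.5, 69.1 and 79.2 against 44.7, 34.7, 37.8 and 39.7 CPM (1.04 ± 0.07, edgeR adjusted p = 6.23e-11), and it rose by 1.03 in cluster 3 and 1.09 in cluster 0. Vim, vimentin, was higher by 1.27 ± 0.19 (edgeR adjusted p = 2.13e-05), Actg1, gamma actin, by 0.85 ± 0.09 (edgeR adjusted p = 9.64e-08) and the actin-binding Tmsb4x by 0.32 ± 0.05 (edgeR adjusted p = 2.18e-05).

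**Figure D4:**
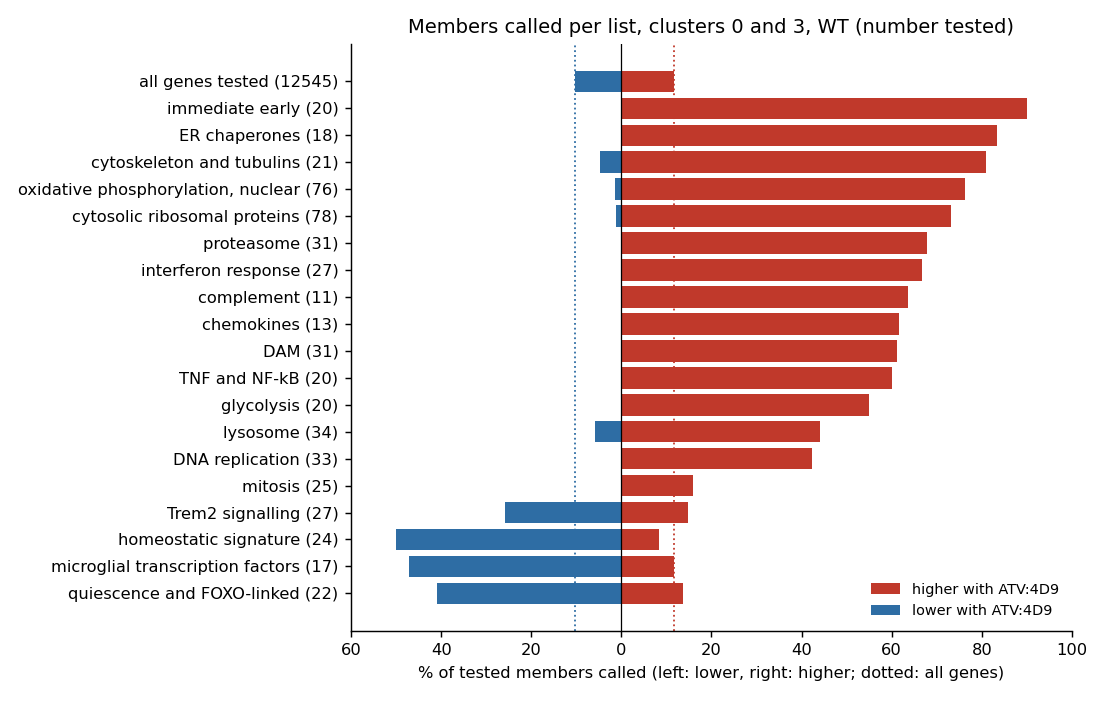
Share of the tested members of each list that were called lower (left) or higher (right) with ATV:4D9 over clusters 0 and 3, in %, with the number tested in brackets and dotted lines at the shares of all genes (10.3% and 11.7%). The lists from immediate early genes to DNA replication lie to the right, and the homeostatic signature, transcription factors and quiescence genes to the left.

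The effect was tested for a difference between cluster 3 and cluster 0 with the mouse as a block. Both clusters were made from the expression of these cells, and cluster 3 is the one high in immediate early genes. A cell that raised such genes could thus be placed in cluster 3. The test cannot tell this placement from a different effect within each cluster. Of 10972 genes tested, 76 differed (0.693%), with 60 more positive and 16 more negative in cluster 3. The counts were 34 and 6 in the stricter cells and 31 and 3 in matched cells, and leaving out a pool gave 35 to 49 and 3 to 13, with 36 and 3 without pool 2 and 35 and 6 without pool 4. Gadd45b stood in cluster 3 at 144, 88.02, 136 and 142 CPM against 50.1, 18.3, 45.97 and 54.4, and in cluster 0 at 7.94 ± 4.86 against 9.59 ± 3.87 (SD, n = 4), a difference of effects of 1.95 ± 0.25 (edgeR adjusted p = 1.22e-06). Cd14, a coreceptor for lipopolysaccharide, stood at 809.7 ± 83.9 against 518 ± 79.3 in cluster 3 and 334 ± 39.01 against 359 ± 48.1 in cluster 0 (0.71 ± 0.07, edgeR adjusted p = 3.45e-10). Mif, a secreted cytokine, stood at 242 ± 30.9 against 128 ± 4.11 and 161 ± 17.2 against 134 ± 2.06 CPM (0.60 ± 0.08, edgeR adjusted p = 2.48e-06). So the rise of these 3 genes was larger in cluster 3, and in cluster 0 Mif alone passed the test. Ier2 (0.80), Il1b (0.90), Adamts1 (0.91), Il1a (0.72), Ccl4 (0.66), Tpi1 (0.51), C5ar1 (0.45), Cst7 (0.44), Gpr84 (0.34) and Eif5a (0.28) also had a more positive effect in cluster 3. By list, 5 of 19 tested TNF and NF-kB genes, 5 of 30 DAM genes, 5 of 19 glycolysis genes and 3 of 12 chemokines were more positive in cluster 3. Nuclear oxidative phosphorylation gave 3 of 76, ER chaperones 1 of 18 and cytosolic ribosomal proteins none of 78.

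The same comparison in the homeostatic cells of AppSAA;TfRmu/hu mice, which have their own ATV:ISO mice, differed from that in WT mice in few genes. ATV:4D9 gave 1165 higher and 747 lower genes there, and a difference between the genotypes was called for 23 of 12545 genes (0.183%), 7 more positive and 16 more negative in AppSAA mice. Fcgr3 fell in WT mice (-0.42) and stood at -0.07 in AppSAA mice, a difference of 0.35 ± 0.06 (edgeR adjusted p = 0.0181). Fcgr2b gave -0.31 and 0.15 (0.46 ± 0.07, edgeR adjusted p = 0.00749), and the Toll-like receptor homologue Cd180 0.73 and 0.09 (-0.64 ± 0.10, edgeR adjusted p = 0.00749). Evi2a (-0.44), Samd1 (0.72), Camk2n1 (-0.52) and Adamts1 (-0.86) were the other named genes called. These calls were fragile, with 0 to 19 higher and 0 to 31 lower when a pool was left out and none in edgeR without the block, where 520 genes had an unadjusted p under 0.05 (1291 with the block). limma-voom gave 8 and 15. The AppSAA mice given ATV:4D9 had 120, 419, 105 and 411 homeostatic cells. With so few cells, a small count of called genes does not show equal effects in the genotypes. At this depth no gene can be said to respond in WT mice alone.

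Few markers of other cell types were called, but in several lists few passed the count filter. Tested were 2 of 8 neuronal, 5 of 8 astrocyte, 3 of 8 endothelial and mural, 5 of 8 monocyte and 2 of 10 lymphocyte genes. Over all tested genes, 22.1% were called in either direction. The neuronal list summed to 0 to 1.96 plain CPM with ATV:4D9 and 2.60 to 3.46 with ATV:ISO, with Nrgn called lower and at 0 in 3 of the 4 ATV:4D9 mice. Astrocyte markers summed to 77.9 to 117 against 141 to 171, of which Slc1a3, a glutamate transporter, gave most (-0.54 ± 0.06, edgeR adjusted p = 7.85e-07), and it was the only member called of 5 tested. Endothelial and mural markers summed to 528 to 760.2 against 512 to 624, mostly through Bsg (0.28 ± 0.05, edgeR adjusted p = 4.39e-05), also the only call of 3, which was lost without the block (edgeR adjusted p = 0.238). The border macrophage, neutrophil and oligodendrocyte lists gave no call over clusters 0 and 3. In cluster 3 the border macrophage marker Ms4a7 was called lower, at 0, 0, 1.98 and 1.002 against 2.12, 2.34, 2.13 and 2.22 CPM (edgeR adjusted p = 0.0375). The monocyte and lymphocyte lists gave 1 call each, S100a4 and Cd79b, with sums of 7.43 to 13.5 against 7.56 to 12.1 and 266 to 308 against 278 to 308. The lymphocyte sum came mostly from Ighm, the heavy chain of immunoglobulin M, at 267 ± 24.8 against 254 ± 19.1 CPM (SD, n = 4), which was not called (edgeR adjusted p = 0.378). The part of these markers in any result was not tested.

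How far the change was shared among cells was described after thinning each cell to 5000 UMIs, which left out 103 of 1251 ATV:4D9 cells (8.23%) and 1052 of 9475 ATV:ISO cells (11.1%). For each list, the share of a mouse's ATV:4D9 cells was taken that lay above the 90th percentile of its own pool's ATV:ISO cells. Equal values keep the share of the ATV:ISO cells themselves at or under about 10%, and it is given beside the value where it was below 9%. For ER chaperones 38.3% ± 5.99 of cells (SD, n = 4 mice) lay above it, 39.0% in cluster 3 and 38.9% in cluster 0, and 32.3% in the stricter cells. For the TNF and NF-kB list it was 30.8% ± 8.97 over both clusters, 27.6% in cluster 3 and 13.5% in cluster 0. In cluster 3 the SD over mice was 14.1 (15.8% to 45.2%) and in cluster 0 it was 1.61 (8.41% of ATV:ISO cells), and the difference between the clusters was not tested. DAM genes gave 28.2% ± 1.31 (33.4% in cluster 3, 21.96% in cluster 0), chemokines 23.2%, immediate early genes 20.5% ± 9.88 (17.0% and 10.0%), interferon genes 19.5% (8.10% of ATV:ISO cells), ribosomal proteins 17.9% and DNA replication 12.8% (5.32% of ATV:ISO cells). Without thinning, DNA replication gave 22.2% against 10.02% of ATV:ISO cells. For the homeostatic signature, 32.5% ± 6.15 of ATV:4D9 cells lay below the 10th percentile of the ATV:ISO cells. Immediate early genes took a median of 2.36% of the UMIs of a thinned cell with ATV:4D9 and 0.92% with ATV:ISO over both clusters, but 3.70% against 3.21% in cluster 3 and 0.40% against 0.42% in cluster 0. Cells of 1 pool can share free RNA, whose part was not tested.

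**Figure D5:**
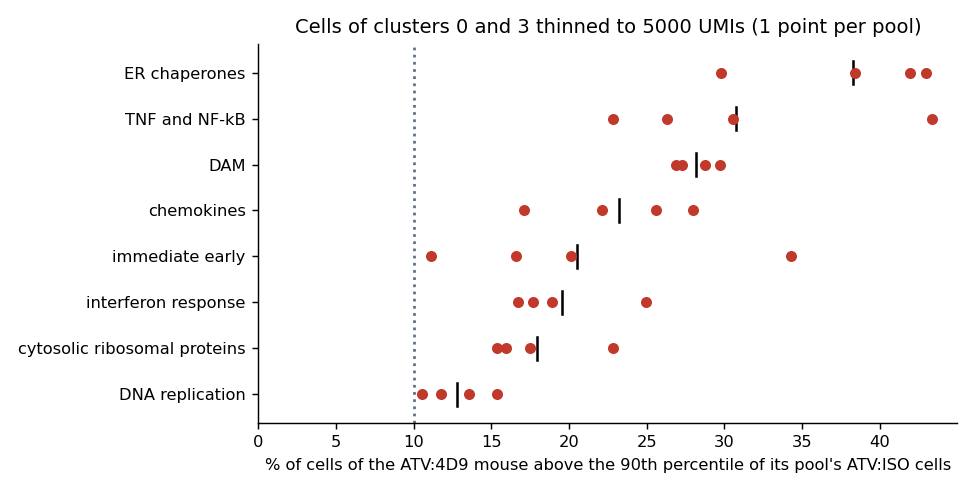
Share of the homeostatic cells of each ATV:4D9 mouse that lay above the 90th percentile of the ATV:ISO cells of its pool in the list's share of UMIs (cells of clusters 0 and 3 thinned to 5000 UMIs), with 1 point per pool, a bar for the mean and a dotted line at 10%. ER chaperones lie farthest to the right (38.3% on average). The line is not the share of the ATV:ISO cells in lists with many equal values, where that share was lower (5.32% for DNA replication).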

How the data were processed

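Microglia sorted from 20 mice were profiled by droplet single-cell RNA-seq with cell multiplexing tags. The submitters' processing notes name Cell Ranger 6.1.1 and mm10. The authors deposited one matrix of UMI counts (19737 genes by 74758 cells, not normalised) and a cell annotation with the mouse, clusters at resolutions 0.2 and 0.4 and, as deposited, the mitochondrial percent per cell. Their doublet treatment is not given in the sources used here, and no doublet caller was run. Depth sets the precision, and the ATV:4D9 sums are the shallower ones (1481353 to 3724017 UMIs per mouse, against 16009897 to 26554454).

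UMI counts were summed per mouse over the cells of clusters 0 and 3, of cluster 3 and of cluster 0. All 20 mice entered 1 fit in edgeR 4.0.16 (R 4.3.3) with filterByExpr, TMM factors (0.927 to 1.07 in the 8 mice), group and pool as terms, the quasi-likelihood test and p-values adjusted by Benjamini-Hochberg across the tested genes, with calls at 0.05. The cluster difference used 8 WT mice with the mouse as a block, and the genotype difference a contrast of contrasts. The SE printed with an edgeR log2 difference was derived from the test. It is the absolute difference divided by the square root of the quasi-likelihood F statistic. The pool pairs the mice by the labels, and deviations of same-pool WT mice from their group means correlated across genes at 0.186 to 0.294 over clusters 0 and 3. Single values per mouse were compared with exact permutation tests (SciPy 1.17.1). Scripts were tested on simulated data. Coordinates are those of GRCm38, with genes matched by symbol.

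The 8 WT mice were labelled as separate mice. The members and the gene lists were chosen with earlier results of these data known. Genes were named by rule as the 10 largest rises and 10 largest falls among called genes with a mean of at least 20 CPM and no overlap between the groups, in the 2 main comparisons, and up to 4 called members of each list by size with its most abundant member, besides a fixed set. Alternatives were RLE factors, other count filters, DESeq2 1.42.0, limma-voom (limma 3.58.1), WT mice alone, no block, matched cells, cells of 5000 to 15000 UMIs, the stricter cells and each mouse or pool left out. Some members of the lists are counted but not reported by name here.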

Additional observations from a re-analysis of the deposited data

Results flagged for a closer look

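Dixon's test, which chance passes in about 1 in 20 groups, set 1 mouse apart from the other 3 of its group in 16 of 278 groups over clusters 0 and 3. This share is near that of chance. The groups were of TMM-scaled CPM and of the values per mouse, and all 16 flags were in TMM-scaled CPM. Among ATV:4D9 mice, these were Gadd45b in pool 2 (56.9), Il1a in pool 3 (759), Ier3 in pool 1 (629), Ldha in pool 1 (252), Mif in pool 2 (181) and Samd1 in pool 4 (16.4). Among ATV:ISO mice, they were Adamts1 (69.1) and Fcgr3 (1055) in pool 2, Bank1 (61.2) and P2ry12 (2756) in pool 4, and Ftl1 (2664), Rpsa (1081), Cox6a1 (166), Pgk1 (67.7), Cd14 (524) and Evi2a (287) in pool 1. The ATV:ISO mouse of pool 4 is the female one, and the ATV:ISO mouse of pool 1 holds 6 of the 16 flags.

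The effect of ATV:4D9 differed between cluster 3 and cluster 0 in 76 genes by the interaction test in edgeR. The test cannot tell a different effect within each cluster from the placement of cells by their expression. Named genes, as cluster 3 minus cluster 0 on the log2 scale, were Gadd45b (1.95), Cxcl10 (1.35), Tnf (1.08), Adamts1 (0.91), Il1b (0.90), Ier2 (0.80), Il1a (0.72), Cd14 (0.71), Ccl4 (0.66), Mif (0.60), Apoe (0.53), Tpi1 (0.51), C5ar1 (0.45), Cst7 (0.44), Gpr84 (0.34), Pkm (0.34), Gapdh (0.34), Eif5a (0.28) and Maf (-0.30).

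The effect differed between AppSAA and WT mice in 23 genes. As AppSAA minus WT on the log2 scale, the named ones were Adamts1 (-0.86), Cd180 (-0.64), Camk2n1 (-0.52), Evi2a (-0.44), Fcgr3 (0.35), Fcgr2b (0.46) and Samd1 (0.72). Evi2a, Fcgr3, Adamts1 and Samd1 also had a mouse set apart above.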

How the results depend on the processing

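Counts are given as higher and lower. Without the pool as a block, called genes numbered 534 and 325 over clusters 0 and 3, 482 and 235 in cluster 3, 119 and 53 in cluster 0, and 0 and 0 for the AppSAA minus WT difference. Matched cells gave 965 and 720, 857 and 553, 383 and 200, and 31 and 3 for the cluster difference. The stricter cells gave 824 and 690, 466 and 334, 422 and 270, and 34 and 6. With a mouse or pool left out, the ranges were 1166 to 1380 and 972 to 1245 over both clusters, 405 (without the ATV:4D9 mouse of pool 1) to 562 and 261 (without that of pool 2) to 419 in cluster 0, 35 to 49 and 3 to 13 for the cluster difference, and 0 to 19 and 0 to 31 for the AppSAA minus WT difference. The RLE, DESeq2, limma-voom and WT-only counts over both clusters stayed within 1.5 times the counts given in the report. In matched cells Jun (-0.066), Klf6 (-0.023), Jund (-0.087) and Txnip (-0.12) were reversed over both clusters, and in the stricter cells Ptgs2 was reversed in cluster 3 (-0.51); the cause was not tested. Of the 127 genes named and called over both clusters, 88 were called under every alternative. With a mouse left out the difference in the share of microglia in clusters 0 and 3 was -89.3 to -87.8 percentage points, that in the share of cluster 3 was 21.7 to 24.0 and that in median UMIs 1058 to 1502, each at the smallest exact permutation p those 7 mice allow (0.0571). Over all cells of the homeostatic clusters of the finer clustering, whatever their coarser cluster, the last was 665.6 (exact permutation test, p = 0.229). In cluster 0 some ATV:4D9 sums hold few cells, which limits what could be detected there.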
